A study of Sus scrofa with 30 samples.

Results

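The miR-23, miR-27 and miR-24 family is encoded in 2 groups of neighbouring hairpins, here called the a cluster and the b cluster. All sequences of the study's list of annotated miRNAs and isomiRs (variants of a miRNA with other ends) whose name has the root mir-23a, mir-23b, mir-24, mir-27a or mir-27b were taken, whatever the species, arm or end, and this gave 32 members beside 841 other annotated sequences. Of these, 15 are named for hairpins of the a cluster only, 11 for hairpins of the b cluster only, and 6 can come from either. In the pig genes of RefSeq (assembly Sscrofa11.1), MIR23A, MIR27A and MIR24-1 neighbour each other, and MIR23B, MIR27B and MIR24-2 neighbour each other inside the gene C10H9orf3.

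Small RNA was sequenced from whole endometrium of 30 Hampshire x Duroc gilts aged 7 to 8 months of 1 commercial herd, 1 library per animal. Pregnant (P) animals were sampled on days (D) 12, 16 and 20 after insemination at the third estrus, with 5 libraries for PD12, 5 for PD16 and 6 for PD20. Cyclic (C) animals were sampled on the same days, with 4 libraries for CD12, 5 for CD16 and 5 for CD20. On D12 and D16 of pregnancy the conceptuses were flushed out with buffer, while on D20 trophoblast and embryos were dissected away, so removal of the conceptus differs between days of pregnancy. The PD20 endometrium was taken at implantation sites, which the methods name for no other group. The part of the sampled site in PD20 vs CD20 was not tested. The libraries held between 2029729 and 6402731 reads, of which 75.3% to 87.2% matched an annotated sequence. Levels are given as CPM, the reads of a sequence per 1000000 annotated reads of its library after TMM scaling. In bulk tissue, fewer cells of a type and less RNA per cell cannot be told apart.

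Each hairpin of this family gives a strand from its 3p arm that is usually the more abundant, and a rarer strand from the 5p arm. A miRNA finds its targets mainly through its seed, bases 2 to 8, so the a and b copies are taken to share most targets. In blood vessels miR-23 and miR-27 are known for effects on sprouting of endothelial cells, miR-24 for effects on their survival, and miR-27 is known in addition for control of fat storage genes such as PPARG. The endometrium of the pig builds new vessels as conceptuses attach.

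The reference forms, meaning the mature sequences under their pig names, are printed 5′ to 3′ as DNA letters, since they are used to compare the a cluster with the b cluster. Further comparisons of the clusters sum all listed 3p forms. Capitals mark the seed, which miR-23a shares with miR-23b and miR-27a shares with miR-27b.
miR-23a: aTCACATTgccagggatttcc
miR-23b: aTCACATTgccagggattacca
miR-27a: tTCACAGTggctaagttccgc
miR-27b: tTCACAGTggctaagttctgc
miR-24-3p: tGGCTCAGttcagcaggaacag
Counted from 1 at the 5′ end, miR-23a differs from miR-23b by T19A over the length of the shorter sequence, and miR-27a from miR-27b by C19T. The first 18 bases are therefore shared within each pair, and the 2 listed forms of 18 nt cannot be placed in a cluster.
18-nt miR-23a/b: aTCACATTgccagggatt
18-nt miR-27a/b: tTCACAGTggctaagttc
Strands of the 5p arm were listed for miR-27a and for miR-24-1 of the a cluster, and their most abundant forms are shown because they come from the same hairpins under another seed.
miR-27a-5p: aGGGCTTAgctgcttgtgagca
miR-24-1-5p: gTGCCTACtgagctgaaacaca

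miR-27b was the most abundant member, with a mean of 6294 CPM over 30 libraries, which was place 20 among all annotated sequences. The reference forms of miR-23a (288 CPM), miR-27a (246 CPM), miR-23b (128 CPM) and miR-24-3p (45.7 CPM) followed. For miR-23b and miR-24-3p the reference form was not the most abundant one. The 21-nt form of miR-23b, which lacks the last A, had a mean of 332 CPM. The 20-nt form of miR-24-3p, which lacks the last 2 bases, had a mean of 530.1 CPM. All 32 members together made up between 0.538% and 3.17% of annotated reads per library. The 5p strands were low, with 20.2 CPM for the 22-nt miR-27a-5p and 6.32 CPM for the 22-nt miR-24-1-5p.

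**Figure D1:**
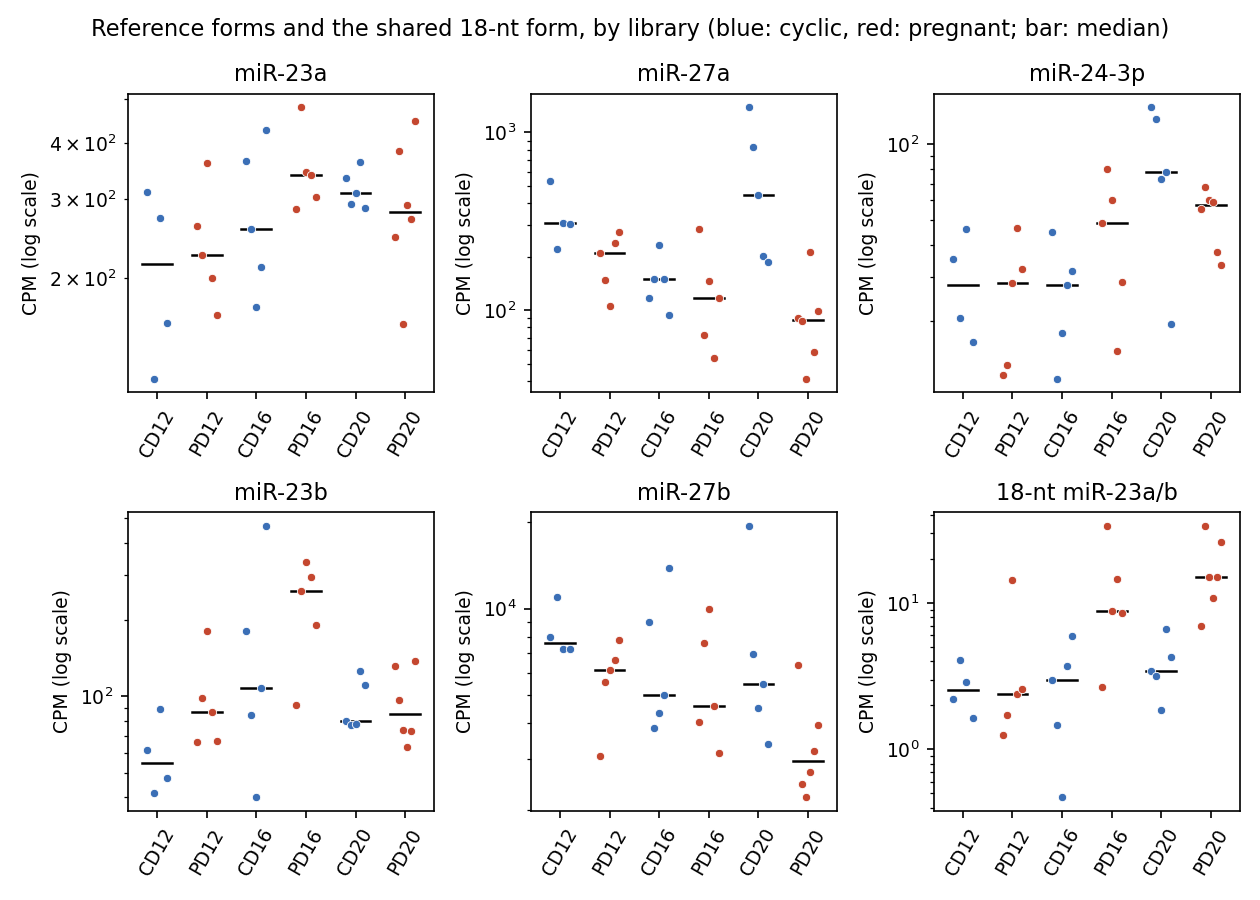
CPM on a log scale of the 5 reference forms and of the 18-nt form shared by miR-23a and miR-23b, with 1 point per library, blue for cyclic and red for pregnant animals, and bars at the group medians. miR-27a had its highest median in CD20 (442 CPM) and its lowest in PD20 (88.5 CPM), while the 18-nt form had its highest median in PD20 (14.9 CPM).

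miR-27a of the a cluster differed most between pregnancy and the cycle on D20. On CD20 its levels were 1389, 824, 442, 202 and 186 CPM. On PD20 the lowest level was 41.1, the median 88.5 and the highest 212 CPM. Only the highest PD20 library, replicate 4, reached into the range of CD20. The log2FC of PD20 vs CD20 was -2.63 (SE 0.55, adjusted p = 0.0262, edgeR quasi-likelihood F-test with Benjamini-Hochberg adjustment over all annotated sequences). Calls require an adjusted p below 0.05 together with a log2FC above 1 in size. In PD20 vs CD20, 2 of the 32 members were called, against 1.49% of all sequences tested. By direction, 1 member was called higher and 1 lower, against 0.687% and 0.802% of all sequences. The median log2FC was -0.17 over the members and -0.03 over all sequences.

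The second called member was the 18-nt form shared by miR-23a and miR-23b, and it was higher in pregnancy. On CD20 it had 3.41, 3.17, 1.86, 6.68 and 4.29 CPM. On PD20 the lowest level was 6.98, the median 14.9 and the highest 33.7 CPM. No library of PD20 overlapped with CD20, although the closest values were 6.98 and 6.68 CPM. The log2FC was 2.20 (SE 0.48, adjusted p = 0.0328, same F-test). It is a rare sequence, with between 1 and 76 reads per library. Groups that do not overlap were found for 2 of 32 members in this comparison (the 18-nt form and the 20-nt form of miR-23b, both higher in PD20), against 4.81% of all sequences.

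Both calls depended on single libraries. With each of the 11 libraries left out in turn, miR-27a was called in 6 of 11 fits, with a log2FC from -3.02 to -2.05 and an adjusted p up to 0.0863, the edgeR value without CD20 replicate 1. The 18-nt form was called in 4 of 11 fits, with a log2FC from 1.94 to 2.46 and an adjusted p up to 0.0946, the edgeR value without CD20 replicate 2. The share of all sequences called moved as well in these 11 fits, from 0.573% to 13.29%, the latter without PD20 replicate 4. The likelihood ratio test of edgeR called 5 members and DESeq2 called 6 members in PD20 vs CD20, and both included these 2, but they also called 14.2% and 15.01% of all sequences, near the members' shares. DESeq2 added the 19-nt and 20-nt forms of miR-23a, the 22-nt miR-27a form ending in T and the 22-nt miR-27b form ending in G, and the likelihood ratio test added the same without the 20-nt form. The T-ending and G-ending forms are listed only under names of other species, not under pig names.

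miR-27b, the b copy with the same seed, had on CD20 19419.6, 6988, 4527, 5470.2 and 3391 CPM. On PD20 it ranged from 2218 through a median of 2959.7 to 6393 CPM, and the groups overlapped. Its log2FC was -1.16 (SE 0.47), which was not called by the edgeR F-test (adjusted p = 0.120). Without CD20 replicate 1, the highest library, it was -0.51. miR-24-3p had a log2FC of -0.73 (SE 0.42, edgeR adjusted p = 0.254). For miR-23a, the neighbour of miR-27a, the levels were 334, 292, 310.0, 363 and 287 CPM on CD20, and 158, 281 and 448 CPM as lowest, median and highest on PD20. The log2FC of miR-23a was -0.07 (SE 0.31) and that of miR-23b 0.05 (SE 0.33), neither called by edgeR (adjusted p = 0.887 and 0.922).

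The isomiRs of the miR-27 pair were not all lower on PD20. Of the 5 shorter 3p forms (3′ end 1 to 3 bases before the reference end), 5 had a positive log2FC in PD20 vs CD20, from 0.08 to 1.18. The 5 forms with a longer 3′ end had 0 positive values, from -2.22 to -0.99. They include the T-ending miR-27a and the G-ending miR-27b, which have no pig name. Within miR-27a, the 19-nt form had a mean of 86.4 CPM on PD20 and 50.4 CPM on CD20 (log2FC 0.79, SE 0.54), while the reference form had 97.9 and 609 CPM. Within miR-27b, the 19-nt form had 672 and 351 CPM (log2FC 0.96, SE 0.40), while the reference form had 3492 and 7959 CPM. None of the shorter or longer forms of miR-27 passed the threshold with the F-test, and 2 of the 5 shorter and 2 of the 5 longer forms had an unadjusted p under 0.05, against 28.5% of all sequences. With all deposited reads as library size, 4 of 5 shorter forms were positive (from -0.10 to 1.04).

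For the miR-23 pair the shorter forms were likewise the positive ones. The 5 shorter forms had a positive log2FC, from 0.33 to 2.20, and the 4 longer forms had 0 positive values, from -0.37 to -0.27. The 20-nt form of miR-23a, which lacks the last C, had 53.0 CPM on PD20 and 25.8 CPM on CD20 (log2FC 1.05, SE 0.37). The miR-24-3p forms that start at the reference 5′ end were all negative. Those that lack the last base or the last 2 bases had a log2FC of -0.36 (SE 0.41) and -0.37 (SE 0.39), which was above the -0.73 of the reference form by less than its SE (0.42). The forms of a miRNA overlap in sequence and share their hairpin, so they are not independent measurements.

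**Figure D2:**
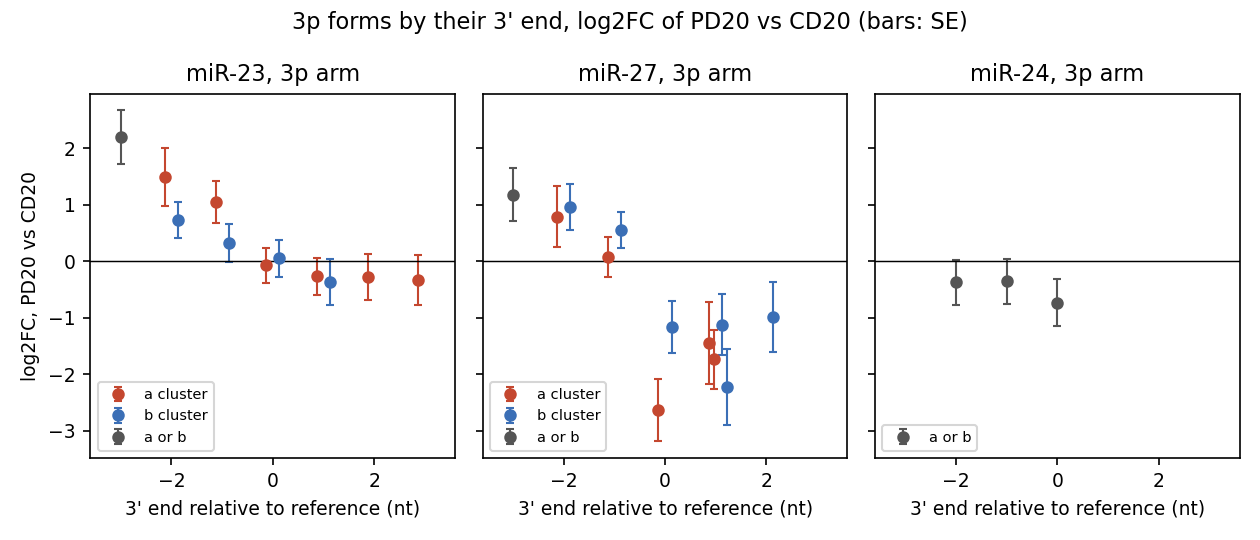
log2FC of PD20 vs CD20 (bars: SE) of each 3p form that starts at the reference 5′ end, against the distance of its 3′ end from the reference end in nt, for miR-23, miR-27 and miR-24 and coloured by cluster. For miR-23 the values go from 2.20 at 3 bases shorter to -0.33 at 3 bases longer, and for miR-27 every form at or beyond the reference end lies below 0. The value of 2.20 is that of the 18-nt miR-23a/b, whose distance is taken from the 21-nt miR-23a and not from the 22-nt miR-23b.

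The share of shorter 3p forms among listed 3p reads gives the same contrast within a library, free of scaling between libraries, and is a description without a test. For miR-27a it was 21.9% ± 14.9 (SD, n = 5) on CD20 and 59.8% ± 7.30 (SD, n = 6) on PD20. The highest CD20 library had 43.2% and the lowest PD20 library 48.8%, so these groups did not overlap. No such share is given for the other annotated miRNAs, so whether this is particular to the family was not tested. For miR-27b the share was 14.99% ± 7.27 (SD, n = 5) and 33.5% ± 9.15 (SD, n = 6), with an overlap between 22.9% and 23.7%. For miR-23a it was 5.63% ± 1.53 (SD, n = 5) and 12.9% ± 3.91 (SD, n = 6), and for miR-23b 67.1% ± 3.26 (SD, n = 5) and 72.9% ± 2.43 (SD, n = 6). For miR-24-3p it was 87.1% ± 6.42 (SD, n = 5) and 89.04% ± 3.27 (SD, n = 6), which differed by less than the spread. Over all deposited forms the miR-24-3p share was far lower on both days, and its mean was then slightly higher on CD20 than on PD20.

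Across days the share of shorter miR-27a forms was 17.9% ± 0.665 (SD, n = 4) on CD12 and 44.9% ± 21.3 (SD, n = 5) on CD16. In pregnancy it was 31.2% ± 13.2 (SD, n = 5) on PD12 and 53.5% ± 18.9 (SD, n = 5) on PD16. The spread between animals on D16 covered most of the range of all groups. The share of shorter miR-24-3p forms was between 79.3% and 98.1% over the 30 libraries, and that of miR-23a between 1.98% and 16.7%, so these ranges did not overlap. A share read over all deposited sequences with the same start was lower for miR-23b and miR-24 in each group.

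**Figure D3:**
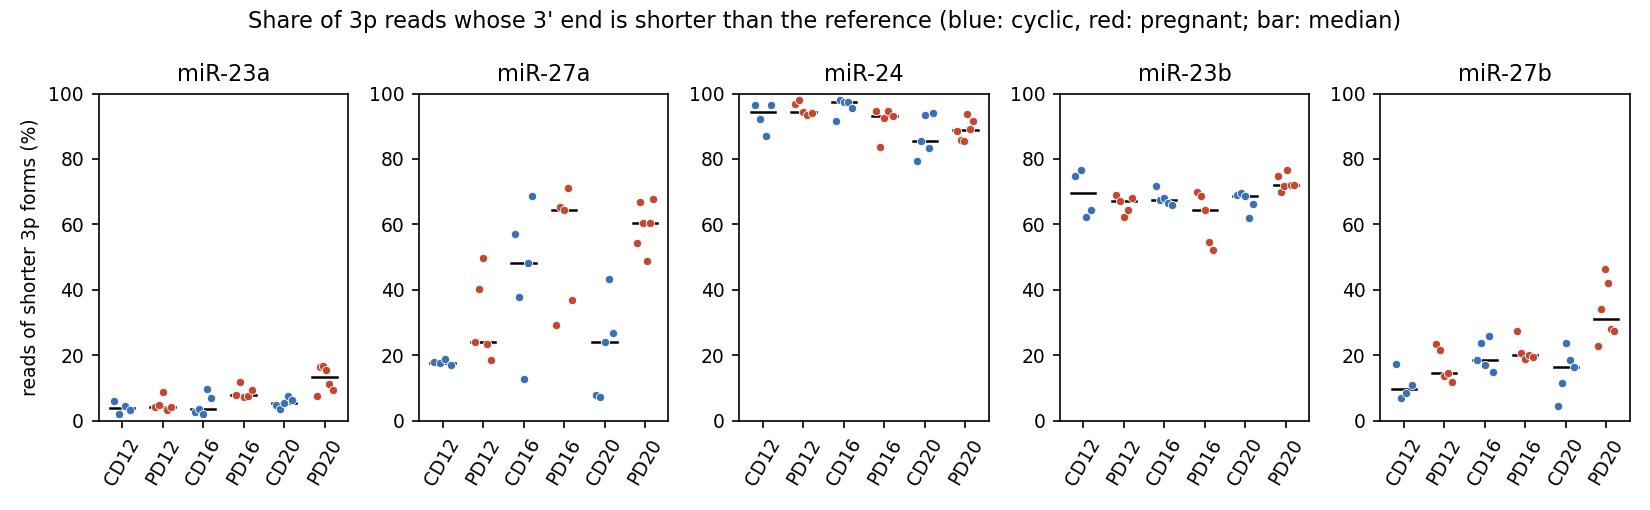
Share, in percent of listed 3p reads, of forms whose 3′ end is shorter than the reference, for 5 miRNAs with 1 point per library (blue cyclic, red pregnant, bar at the median). miR-27a ranged from 7.38% to 71.2% between libraries, and on D20 all PD20 libraries lay above all CD20 libraries.

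Summing the forms of each miRNA reduced the difference of miR-27a. In a fit of 230 summed miRNAs, miR-27a on PD20 vs CD20 had a log2FC of -1.42 (SE 0.44, edgeR adjusted p = 0.0520) and was not called. The summed value of miR-27b was -0.68 (SE 0.40), of miR-23a 0.07 (SE 0.27) and of miR-23b 0.33 (SE 0.28). The 1 family entry called there was the 18-nt form shared by miR-23a and miR-23b, which has no other form to be summed with (log2FC 2.30, SE 0.47, edgeR adjusted p = 0.0122), against 8.26% of all summed miRNAs. On CD20 vs CD16 the summed miR-27a was called (log2FC 1.51, SE 0.44, edgeR adjusted p = 0.0459), against 7.83% of all summed miRNAs.

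During the cycle miR-27a was low on CD16 and high on CD20. Its levels were 532, 220.1, 310.4 and 306 CPM on CD12, and 116, 149, 232, 150.2 and 94.1 CPM on CD16. The CD16 values overlapped with CD12 only through the highest CD16 and the lowest CD12 library, and with CD20 through 3 libraries. The log2FC of CD20 vs CD16 was 1.96 (SE 0.52) with an adjusted p = 0.0957 by the edgeR F-test, and it was not called. It was called in 3 of 14 fits without 1 library, those without CD20 replicate 3, 4 or 5 (edgeR adjusted p from 0.0345 to 0.265 over the 14 fits). The 22-nt forms ending in C and in T had log2FC of 2.22 (SE 0.72) and 1.85 (SE 0.54), with edgeR adjusted p = 0.0969 and 0.0957. With 1 library left out in turn, the C-ending form went from 1.65 (without CD20 replicate 1) to 3.30 (without CD16 replicate 1). The T-ending form went from 1.34 to 2.08. In CD20 vs CD16, 0 of 32 members were called, against 0.458% of all sequences, while 9 members had an unadjusted p under 0.05, against 21.2% of all sequences. Groups did not overlap for 3 members, the longer forms of miR-23a, against 4.93% of all sequences. The likelihood ratio test and DESeq2 each called 4 members there, which were the reference, C-ending and T-ending forms of miR-27a and miR-24-3p, against 6.41% and 8.59% of all sequences.

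miR-24-3p was highest on CD20 as well, with 140.5, 126.2, 73.1, 78.0 and 19.5 CPM, against 45.2, 11.8, 17.9, 27.8 and 31.5 CPM on CD16. CD20 replicate 5 lay within the range of CD16. The log2FC of CD20 vs CD16 was 1.58 (SE 0.51, edgeR adjusted p = 0.0969). Reads of miR-24-3p can come from both clusters. Its 20-nt form had 573 CPM on CD20 and 652 CPM on CD16.

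In the joint test of CD16 and CD20 against CD12, 0 members were called by edgeR, against 0.115% of all sequences on CD16 and 0.458% on CD20, and 12 members had an unadjusted p under 0.05 (23.9% of all sequences). DESeq2 and the likelihood ratio test each called 4 members on CD16 vs CD12, and 4 and 3 on CD20 vs CD12, against 5.84% and 5.27% of all sequences on CD16 and 6.41% and 5.73% on CD20. The longer forms of miR-23a were among the lowest p-values. The 24-nt form had 1.13 CPM on CD12 and 6.46 CPM on CD20 (log2FC 2.60, SE 0.79), and the 23-nt form 6.76 and 20.8 CPM (log2FC 1.60, SE 0.53), with edgeR adjusted p = 0.122 for both. With 1 library left out in turn, these values went from 2.06 to 3.80 and from 1.27 to 2.47. Both were highest without CD12 replicate 3. In that fit the 23-nt form was called on CD20 vs CD12 (edgeR adjusted p = 0.0444), against 0.802% of all sequences. On CD16 vs CD12, miR-27a had a log2FC of -1.13 (SE 0.53) and its T-ending form -1.33 (SE 0.56), the latter without overlap of the groups, with edgeR adjusted p = 0.121 and 0.122. Without overlap were 1 of 32 members on CD16 vs CD12 and 2 on CD20 vs CD12, against 5.50% and 4.47% of all sequences.

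miR-23b, the b copy of miR-23, had its highest mean on D16 in pregnancy and in the cycle. miR-23b had 66.0, 98.3, 179.7, 86.5 and 66.7 CPM on PD12 and 92.2, 260.0, 336, 294 and 190.3 CPM on PD16. On PD20 the lowest, median and highest levels were 63.4, 85.2 and 137 CPM. On PD16, 4 of 5 libraries were above all libraries of PD12 and PD20, and the fifth, replicate 1, was not. The log2FC was 1.26 (SE 0.38) on PD16 vs PD12 and -0.05 (SE 0.36) on PD20 vs PD12, with a joint adjusted p = 0.0706 by edgeR. For PD20 vs PD16 it was -1.31 (SE 0.36, edgeR adjusted p = 0.114). The edgeR F-test called this difference in 1 of 16 fits without 1 library, the one without PD16 replicate 1 (adjusted p = 0.0442, up to 0.269 in the others). In the cycle miR-23b had 61.4, 41.8, 89.0 and 47.8 CPM on CD12 and 181, 84.7, 40.1, 108 and 468 CPM on CD16, so the groups overlapped. The log2FC of CD16 vs CD12 was 1.65 (SE 0.56, edgeR joint adjusted p = 0.143). It fell to 0.805 without CD16 replicate 5, the library at 468 CPM, and rose to 1.90 without CD16 replicate 3.

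Of the forms that lack bases at the 3′ end, the 20-nt miR-23b came closest to the threshold in pregnancy. It had 9.38, 13.1, 7.85, 10.2 and 6.09 CPM on PD12 and 14.4, 40.1, 47.5, 27.6 and 13.8 CPM on PD16. The PD20 libraries ranged from 19.5 to 34.4 CPM with a median of 23.1. Neither day overlapped with PD12. The log2FC was 1.65 (SE 0.37) on PD16 and 1.39 (SE 0.35) on PD20 vs PD12, with a joint adjusted p = 0.0520 by edgeR. The 20-nt form of miR-23a had log2FC of 1.34 (SE 0.45) and 1.61 (SE 0.44), edgeR adjusted p = 0.0988. All 5 shorter forms of miR-23 and all 5 of miR-27 had a positive log2FC on both days of pregnancy vs PD12, with medians of 1.501 and 0.66 on PD16 and 1.61 and 0.77 on PD20. In the cycle 5 of 5 shorter miR-23 forms and 4 of 5 of miR-27 were positive on CD16 and also on CD20 vs CD12, with medians of 0.76 and 0.92 on CD16 and 0.70 and 0.26 on CD20.

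No member was called within pregnancy by the joint F-test of PD16 and PD20 against PD12 or by that of PD20 vs PD16, each over all annotated sequences. The F-test of PD20 vs PD12 alone called 2 members, the 20-nt forms of miR-23b and miR-23a (2.86% of all sequences), and with a 10 CPM minimum the joint test called 1 member on each day, the 20-nt form of miR-23b (0.926% and 2.04% of the sequences kept). The background was 0.229% of all sequences for PD16 vs PD12, 0.802% on PD20 vs PD12 (0.687% higher) and 0.573% on PD20 vs PD16. In the joint test 7 members had an unadjusted p under 0.05 (18.7% of all sequences), and 3 members in PD20 vs PD16 (14.2% of all sequences). The likelihood ratio test and DESeq2 each called 3, 2 and 1 members in these 3 comparisons, all of them miR-23b, its 20-nt form or the 20-nt form of miR-23a. Of all sequences, the likelihood ratio test called 2.75%, 5.27% and 2.41% there, and DESeq2 2.86%, 5.27% and 1.72%. Leaving out 1 library in turn gave 0 members in 14 of 16 fits for both PD16 and PD20 vs PD12, and the most, 4 and 3 members against 1.72% and 2.41% of all sequences, without PD12 replicate 3. For the members the median log2FC was 0.38 on D16 and 0.29 on D20 of pregnancy vs PD12, where all sequences had 0.05 and -0.01. The 20-nt form of miR-23b was the 1 member without overlap on PD16 vs PD12 and also the 1 member for PD20 vs PD12, against 1.83% and 3.32% of all sequences, and between PD20 and PD16 there were 0 such members (1.72% of all sequences).

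Between pregnancy and the cycle on D12 and D16, edgeR called 0 of 32 members and 0 of the 872 sequences tested on each day (0% of all). At an unadjusted p under 0.05 there was 1 member on D12, the 24-nt miR-23a (log2FC 2.15, SE 0.92), against 6.08% of all sequences. On D16 there were 7 members, all higher in pregnancy, against 10.9% of all sequences. They included the 18-nt miR-23a/b (13.6 and 2.92 CPM, log2FC 2.15, SE 0.64) and the 19-nt miR-23a (10.5 and 2.55 CPM, log2FC 2.02, SE 0.58). DESeq2 called 0 members on either day, against 0% of all sequences on D12 and 0.803% on D16, and the likelihood ratio test also called 0, against 0.115% and 0.573%. The median log2FC was 0.13 over the members on D12 and 0.20 on D16, and 0.04 and 0.03 over all sequences. For no member were the groups apart on D12 or on D16 (2.18% and 1.72% of all sequences).

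The difference between pregnancy and the cycle for miR-27a itself changed between D16 and D20. On D16 the log2FC of P vs C was -0.16 (SE 0.44). A fit of all 30 libraries with an interaction of reproductive status and day gave a change of the log2FC by -2.51 from D16 to D20 (SE 0.68, adjusted p = 0.0440, edgeR quasi-likelihood F-test), and 1 of 32 members was called, against 2.41% of all sequences. This call was kept in 8 of 30 fits without 1 library, with values from -2.93 to -1.92. Without CD20 replicate 1 the adjusted p was 0.157, the highest of the edgeR fits. For D16 against D12 and D20 against D12 the interaction called 0 members (0% and 0.115% of all sequences), while 1 and 3 members had an unadjusted p under 0.05 (8.13% and 16.4% of all sequences). For D20 against D16 this was 5 of 32 members, against 19.1% of all sequences.

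The a cluster was next set against the b cluster within each library, by the ratio of raw reads of the reference forms. Ratios of reads between sequences are not ratios of molecules, since ligation differs between sequences. miR-23a exceeded miR-23b in 29 of 30 libraries, with a geometric mean ratio of 2.61 and a range from 0.916 to 5.06. miR-27a was below miR-27b in every library, with a geometric mean ratio of 0.0318 and a range from 0.00682 to 0.118. With all listed 3p forms of each miRNA summed, miR-23a exceeded miR-23b in 15 of 30 libraries, with means of 458 and 522 CPM and a median ratio of 0.985, while miR-27a stayed below miR-27b in every library (388 and 7951 CPM). The order of the miR-23 copies thus depended on which forms were counted. Summed over all their own 3p forms, the a cluster had a mean of 847 CPM and the b cluster 8474 CPM, most of it miR-27b.

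The ratio of miR-27a to miR-27b was highest on CD20, with a geometric mean of 0.0699, and 0.0262 on PD20. On the log2 scale the difference of PD20 vs CD20 was -1.41 (p = 0.0216, exact two-sided permutation test, adjusted p = 0.190 over 18 tests), and 5 of 6 PD20 libraries were below all CD20 libraries. CD20 vs CD16 differed by 1.65 (exact permutation p = 0.0317, adjusted p = 0.190). The ratio of miR-23a to miR-23b differed by 0.95 between PD20 and PD16 (exact permutation p = 0.0260, adjusted p = 0.190). The other 15 of 18 tests had an exact p of 0.103 or more, and 0 of 18 passed after adjustment. The smallest p these designs allow ranged from 0.00216 to 0.00794. For PD20 vs CD20 the ratio of miR-23a to miR-23b differed by -0.15 (exact permutation p = 0.587).

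With all listed 3p forms in the ratio, 3 tests within the cycle passed. The ratio of miR-23a to miR-23b was higher on CD20 than on CD12 by 0.63 and than on CD16 by 0.88, and the ratio of miR-27a to miR-27b was higher on CD20 than on CD16 by 1.17 (exact permutation p = 0.00794, adjusted p = 0.0476 for each). With the reference forms alone the first of these differences was close to 0 (-0.02, exact permutation p = 0.921).

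**Figure D4:**
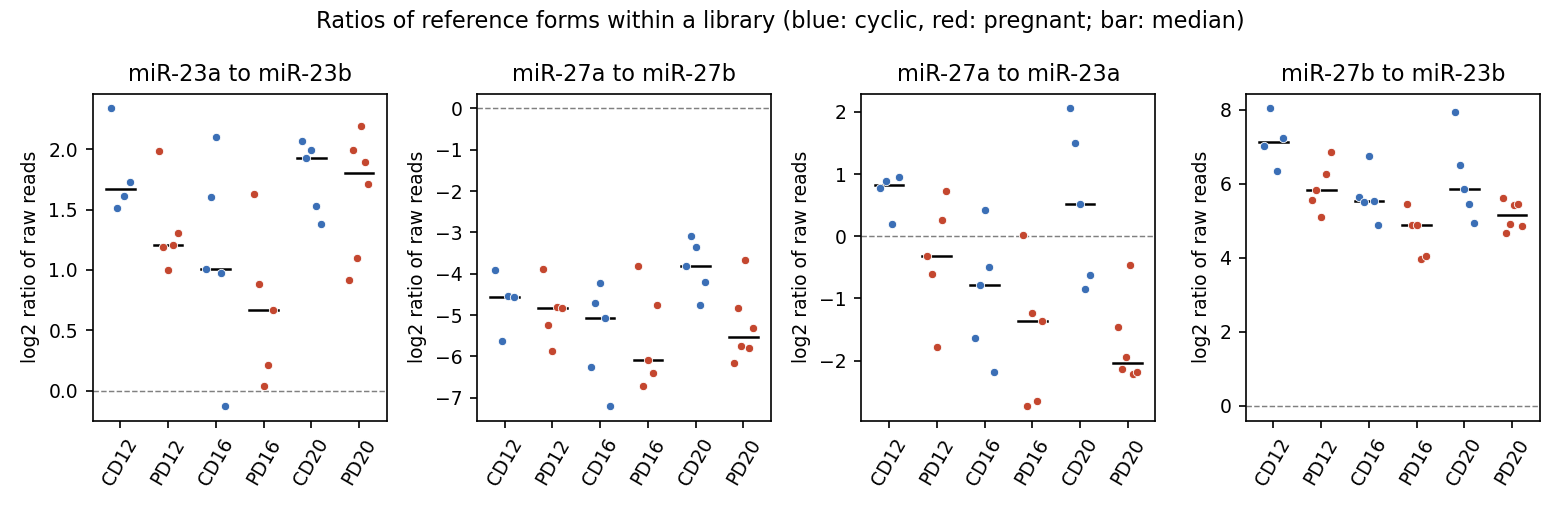
log2 ratio of raw reads between reference forms within each library, for the a over the b copy (miR-23a to miR-23b, miR-27a to miR-27b) and between neighbours of a cluster (miR-27a to miR-23a, miR-27b to miR-23b), with 1 point per library, blue cyclic and red pregnant, and bars at the medians. The ratio of miR-27a to miR-23a crosses 0 in 4 of 6 groups and lies below 0 in every PD20 library.

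The reference forms of neighbours in the same cluster did not keep a fixed ratio. miR-27a over miR-23a had a geometric mean of 1.62 on CD12, 0.522 on CD16 and 1.43 on CD20, and of 0.788, 0.332 and 0.301 on PD12, PD16 and PD20. It was above 1 in 4 of 4 libraries of CD12 and 0 of 6 libraries of PD20. miR-27b over miR-23b had a geometric mean of 143.3 on CD12 and 25.1 on PD16, with 15.6 and 262 as extremes over 30 libraries. Correlations of log2 CPM of the reference forms are a description over 30 libraries, which share the pools and the scaling. miR-23a correlated with miR-23b at r = 0.70 and with its neighbour miR-27a at r = -0.14. miR-27a and miR-27b had r = 0.45, and miR-23b with its neighbour miR-27b r = 0.22.

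Among 526 other annotated sequences that averaged 10 CPM or more, those most like each reference form over the 30 libraries were named by Pearson's r of log2(CPM + 1). For miR-27a they were a 22-nt form of miR-186 (r = 0.89), a 20-nt form of miR-30e (0.85) and a 24-nt form of miR-191 (0.85). For miR-23b they were a 23-nt form of miR-30d (0.89), a 21-nt form of miR-125b (0.82) and a 20-nt form of let-7b (0.79). For miR-23a, forms of miR-125b (0.70 and 0.66) and miR-125a (0.65) came first. miR-24-3p was nearest to forms of miR-30c (0.74) and miR-29a (0.73 and 0.70). miR-27b had no neighbour above r = 0.57, the value of a 21-nt form of miR-140.

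The 5p strands showed no difference that passed the test. Summed over its 2 listed forms, miR-27a-5p had 22.6 ± 10.3 CPM (SD, n = 5) on CD20 and 35.9 ± 17.2 CPM (SD, n = 6) on PD20, the reverse order of the miR-27a reference form of the 3p arm. For the 22-nt miR-27a-5p the log2FC of PD20 vs CD20 was 0.79 (SE 0.43, edgeR adjusted p = 0.221). miR-24-1-5p had 10.44 ± 5.51 CPM (SD, n = 5) and 15.1 ± 7.21 CPM (SD, n = 6) on these days.

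Sequences of 10 of 12 further miRNAs known from blood vessel growth were listed (miR-126, miR-17, miR-20a, miR-92a, miR-210, miR-221, miR-222, miR-296, miR-378 and miR-424), in 46 forms. Of these, edgeR called 1 in each of CD20 vs CD12 and CD20 vs CD16 and 0 in the other 7 comparisons, against 0.458% of all sequences called in each of those 2 comparisons. At an unadjusted p under 0.05 the shares ranged from 6.52% of the forms on PD16 vs CD16 (10.9% of all sequences) to 34.8% on CD20 vs CD16 (21.2%), and on PD20 vs CD20 there were 21.7% (28.5%). The called form was miR-17-5p, a member of the miR-17-92 cluster known for a role in cell proliferation, with log2FC of 2.36 (SE 0.51, adjusted p = 0.0120) and 2.32 (SE 0.47, adjusted p = 0.0251). The 46 forms summed to 4103 ± 634 CPM (SD, n = 4) on CD12, 4794 ± 309.5 (SD, n = 5) on CD16, 7453 ± 804 (SD, n = 5) on CD20 and 5841 ± 567 (SD, n = 6) on PD20, so that the list was highest on CD20, as was miR-27a. Most of these reads (a mean of 3535 CPM over 30 libraries) were the 17 forms of miR-126, which also mark endothelium. Over all 46 forms of the list the median log2FC was 0.63 on CD20 vs CD12, 0.44 for CD20 vs CD16 and -0.17 for PD20 vs CD20.

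miRNAs known as marks of cell types give the makeup beside these values. miR-126 of endothelium, in 17 forms, had a sum of 4604 ± 293 CPM (SD, n = 5) on CD20, 3913 ± 606 (SD, n = 6) on PD20 and 3197 ± 610.1 (SD, n = 5) on CD16. Its forms had a median log2FC of 0.80 on CD20 vs CD16 and 0.74 on CD20 vs CD12, with 41.2% of them at an unadjusted p under 0.05 in both (21.2% and 23.9% of all sequences). The epithelial list, led by a form of miR-200c, had 7733 ± 2236 CPM (SD, n = 5) on CD20 and 10314.5 ± 2404.5 (SD, n = 6) on PD20, while the median log2FC over its 34 forms was -0.36. Of these, 3 forms of miR-205 were called lower on PD20 by edgeR, against 0.802% of all sequences. The leukocyte list stood at 102 ± 44.1 CPM (SD, n = 5) on CD20 and 101 ± 30.9 (SD, n = 6) on PD20, with miR-142 as its leading member and miR-223 not listed. On CD16 it stood lower, at 44.0 ± 18.2 CPM (SD, n = 5), and on CD20 vs CD16, where miR-27a and miR-24-3p were compared above, its 7 forms had a median log2FC of 1.39, with 57.1% of them at an unadjusted p under 0.05 (21.2% of all sequences). The erythrocyte list, led by miR-451, had 1076 ± 618 CPM (SD, n = 5) and 2190 ± 1177 (SD, n = 6). Their part in the differences of miR-27a, miR-24-3p and the 18-nt form was not tested.

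The smooth muscle list, led by miR-143, stood apart in PD20 replicate 1 with 636004 CPM, where the other PD20 libraries had between 76379 and 138143 CPM and the CD20 libraries between 77903 and 128321 CPM. On PD20 vs CD20 its 31 forms had a median log2FC of 0.89, with 7 forms at an unadjusted p under 0.05, and the 8 forms of the skeletal muscle list a median of 1.77, with 5 such forms (28.5% of all sequences). The skeletal muscle list, led by miR-1 and with miR-133a and miR-133b not listed, was also highest there (40185.9 CPM, against 1416 to 8098 CPM in the other PD20 and 1111 to 8771 CPM in the CD20 libraries). On PD20 vs PD16, where miR-23b was compared above, the medians were 1.199 for smooth muscle, with 61.3% of its forms at an unadjusted p under 0.05, and 2.21 for skeletal muscle, with 62.5% (14.2% of all sequences). On PD16 vs PD12, where miR-23b and its 20-nt form were higher in mean level, they were -0.52 and -0.55, with 35.5% and 62.5% of forms by the joint test (18.7% of all sequences). On PD16 vs CD16 they were -0.78 and -1.21, with 38.7% and 50.0% of forms (10.9% of all sequences), beside the 7 members with positive values there. The part of these muscle lists in the differences was not tested. Without PD20 replicate 1, miR-27a on PD20 vs CD20 had a log2FC of -2.63 (edgeR adjusted p = 0.0450) and the 18-nt form 2.35 (edgeR adjusted p = 0.0200).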

How the data were processed

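The deposited values are raw read counts of each unique sequence in each library, from 30 endometrial small RNA libraries. Per the methods of the study, the authors trimmed adapters, dropped low-quality, short and ambiguous reads, collapsed identical reads and annotated sequences against miRBase and pig genome resources. Counts were taken by exact match to the study's list of annotated sequences, with no tolerance for mismatches. Libraries were sequenced in 3 multiplex pools whose membership the labels do not give, so the part of the pool was not tested. The members and all lists were chosen with earlier results of these data known.

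CPM used the annotated reads and TMM factors of edgeR 4.0.16 (R 4.3.3), with a prior count of 0.125. Quasi-likelihood F-tests were run separately for pregnant libraries (joint test of PD16 and PD20 vs PD12), cyclic libraries and each day, with Benjamini-Hochberg adjustment over all sequences tested. Values given with a joint test share 1 adjusted p for both days. The interaction of status and day was fitted on all libraries. Ratios were tested with exact two-sided permutation tests (scipy 1.17.1). Alternatives were the edgeR likelihood ratio test, DESeq2 1.42.0, RLE scaling, all deposited reads as library size, a 10 CPM minimum, every deposited sequence, 1 fit of all libraries, summed isomiRs, a replicate block and leaving out each library. Scripts were tested on simulated data. Named with values were the 5 reference forms, members called in any comparison, the 3 further members with the lowest unadjusted p in each comparison, the most abundant 5p form of a hairpin, and the 3 other sequences most like each reference form. Further forms named were chosen after their values were seen. Counting error limits rare forms, and without molecular identifiers, reads cannot be taken as separate molecules. miR-27a and miR-27b differ at 1 base, so sequencing errors in the abundant miR-27b could be counted as miR-27a, which was not tested.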

Additional observations from a re-analysis of the deposited data

Results flagged for a closer look

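Of 78 groups of 4 to 6 libraries checked for a library far from the others, 7 had one, and chance gives about 5% of groups. For miR-27a, PD20 replicate 4 stood at 212 CPM, with the next library at 98.7 CPM. For miR-27b, CD20 replicate 1 stood at 19419.6 CPM, with the next at 6988 CPM. PD12 replicate 3 was far above the rest of its group for miR-23b (179.7 CPM, next 98.3), for the 18-nt form of miR-23a/b (14.3 CPM, next 2.56) and for the share of shorter miR-23a forms (8.85%, next 4.73%). The share of shorter miR-27b forms was 27.3% in PD16 replicate 1 (next 20.9%), and that of miR-24 was lowest in PD16 replicate 2 at 83.8% (next 92.6%).

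The difference between pregnant and cyclic animals for miR-27a changed from D16 to D20 by -2.51 on the log2 scale. The interaction of status and day had an adjusted p = 0.0440 (edgeR quasi-likelihood F-test). It was not called in most fits without 1 library (edgeR adjusted p up to 0.157, without CD20 replicate 1). With the replicate block it was not called either (edgeR adjusted p = 0.124).

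Outside the annotated list, 250 reads over all 30 libraries held the same 15-base core as miR-24-1-5p and then diverged, against 1286 reads that went on like the listed sequences. Each library held between 2 and 25 of the diverging reads. No 5p strand of miR-24-2, the hairpin of the b cluster, was listed. Whether the diverging reads come from that hairpin was not tested. Their most abundant sequence, with 100 reads, is shown with the bases after the core in capitals.
Diverging miR-24 5p sequence: gtgcctactgagctgaTATCA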

How the results depend on the processing

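The number of called members depended on the test, and so did the share of all sequences called, given in brackets. On PD16 vs PD12 the likelihood ratio test called 3 (2.75%), DESeq2 3 (2.86%) and the 10 CPM minimum 1 (0.926%). On PD20 vs PD12 these called 2 (5.27%), 2 (5.27%) and 1 (2.04%), and a test of that contrast alone 2 (2.86%). PD20 vs PD16 gave 1 with the likelihood ratio test (2.41%) and DESeq2 (1.72%). These 2 tools and 1 fit of all libraries gave 4 (5.27%), 4 (5.84%) and 2 (4.01%) on CD16 vs CD12, 4 (6.41%), 4 (8.59%) and 5 (7.33%) on CD20 vs CD16, 5 (14.2%), 6 (15.01%) and 4 (11.2%) on PD20 vs CD20, and 3 (5.73%), 4 (6.41%) and 3 (5.73%) on CD20 vs CD12. All deposited reads as library size gave 1 on CD20 vs CD16 (0.916%), 1 on PD20 vs CD20 (1.83%) and 2 for the interaction from D16 to D20 (2.29%). Summed isomiRs gave 1 on CD20 vs CD16 (7.83%) and 1 on PD20 vs CD20 (8.26%), and all deposited sequences 1 on PD20 vs CD20 (0.261%). Leaving out 1 library gave 0 to 4 members on PD16 vs PD12 and 0 to 3 on PD20 vs PD12 (highest without PD12 replicate 3, 1.72% and 2.41%), 0 to 1 on PD20 vs PD16 (highest without PD16 replicate 1, 1.03%), CD16 vs CD12 and CD20 vs CD12 (both without CD12 replicate 3, 0.344% and 0.802%), 0 to 2 on CD20 vs CD16 (highest without CD20 replicate 3, 4.12%), on PD16 vs CD16 (without PD16 replicate 1, 4.13%) and for the interaction from D16 to D20 (without PD20 replicate 4, 3.895%, or CD20 replicate 5, 2.98%), and 0 to 6 on PD20 vs CD20 (highest without CD20 replicate 4, 11.9%).

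Libraries of the same number did not deviate together in the median (median r = -0.0423 over 70 pairs, against 0.00203 over 304 pairs of other numbers). Single pairs of the same number ranged from -0.616 to 0.632, and whether the numbers follow a pool was not tested. With the replicate block, 0 members were called on PD20 vs CD20 (0.573% of all sequences), where miR-27a had -2.50 and the 18-nt form 1.97 (edgeR adjusted p = 0.216 for both), and 0 by the interaction.

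With all listed 3p forms, the ratio of miR-23a to miR-23b on CD20 vs CD12 was 0.63, where the reference forms gave a value near 0 (-0.02), on CD20 vs CD16 it was 0.88, and that of miR-27a to miR-27b on CD20 vs CD16 was 1.17. Over all deposited forms, shares of shorter forms were 46.2% (PD20) and 15.7% (CD12) for miR-27a, 45.9%, 46.7%, 57.8%, 49.4%, 51.4% and 51.0% for miR-23b and 72.2%, 57.5%, 52.0%, 66.6%, 75.0% and 53.7% for miR-24 (PD12, PD16, PD20, CD12, CD16, CD20). The 18-nt form was not called under all deposited reads (2.00, edgeR adjusted p = 0.0557) or all deposited sequences (2.11, 0.171). All deposited reads as library size moved the median log2FC of all sequences on PD20 vs CD20 from -0.03 to -0.27 and on CD20 vs CD12 from 0.09 to 0.47. A sign change of a log2FC that was no larger than its SE was not counted as a reversal. Causes were not tested.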
